A study of Rattus norvegicus with 2 samples.

Results

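The 38 genes described here encode the kinases, phosphatases, adaptors and first effectors that sit directly beneath the receptors of natural killer (NK) cells. They were chosen by name, and each gene was read from the brightest probe set (by mean log2 signal) annotated with its symbol alone. Of the 38 genes, 33 had such a probe set, out of 14217 genes on the array, and 30 were measured, meaning that at least 1 array was above a floor of 20.4 signal units. The floor is the 50th percentile of all signals on both arrays. Btk, Ptprj and Plcg1 were below it on both arrays, and Lat2, Sla, Sla2, Pik3r5 and Ubash3a are not analysed here, since the annotation gave none of them a probe set of its own.

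The study compared 2 NK cell populations from the spleens of PVG.7b rats aged 8 to 12 weeks, 9 rats in all. One population carried the inhibitory lectin-like receptor NKR-P1B and not Ly49s3, and the other carried the activating receptor Ly49s3 and not NKR-P1B. Both were sorted as NKR-P1A-positive, CD3-negative cells, at a purity above 90% per the labels, after beads had removed T cells, B cells and macrophages through their antigens, CD5 and CD68 among them. Neither population was given any treatment that the labels name. Each was hybridised to 1 Affymetrix expression array, so no difference has a replicate behind it or could be tested, and "cells" below stands for the 1 array of that population. The sources used here do not say how many rats each array stands for.

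The tails of NK cell receptors have no enzyme activity. Activating receptors pair with adaptor chains that carry tyrosine motifs (ITAMs). Src family kinases phosphorylate these motifs, Syk and Zap70 dock on them, and the signal then passes through the adaptors Lat and SLP-76 to phospholipase C gamma, Vav proteins, protein kinase C and Ras. Inhibitory receptors such as NKR-P1B and the inhibitory Ly49 receptors carry the opposite motif (ITIM), which recruits the phosphatases SHP-1, SHP-2 and SHIP-1, encoded by Ptpn6, Ptpn11 and Inpp5d. Csk and Cbl ubiquitin ligases act as further brakes.

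On the deposited scale all 30 measured genes lay within 1.5-fold between the arrays. Among all 9114 measured genes, 10.8% were at least 1.5-fold apart, 5.11% higher in NKR-P1B+ cells and 5.73% higher in Ly49s3+ cells. Bright genes differ less, and 26 of the 30 genes were above the floor on both arrays with a mean signal of at least 200. Among all 3586 genes of that brightness, 4.6% were at least 1.5-fold apart, 2.76% with the higher signal in NKR-P1B+ cells and 1.84% in Ly49s3+ cells. The absence of such a gene among the 26 cannot be told apart from that share. The log2 difference, NKR-P1B+ minus Ly49s3+, had a median of 0.02 over the 30 genes and of −0.02 over all measured genes. Its SD was 0.23 across the 30 genes, 0.31 across all genes with a mean signal of at least 200 and 0.42 across all measured genes. At the lower limit of 1.2-fold, 6 of the 30 genes were higher in NKR-P1B+ cells, against 17.2% of all measured genes, and 2 in Ly49s3+ cells, against 20.6%. Of the 26 brighter genes 5 and 1 were so, against 13.8% and 11.7% of all genes with a mean signal of at least 200. The 6 were Inpp5d, Tec, Cblb, Lcp2, Fgr and Grap2, and the 2 were Fyn and Dok1.

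**Figure D1:**
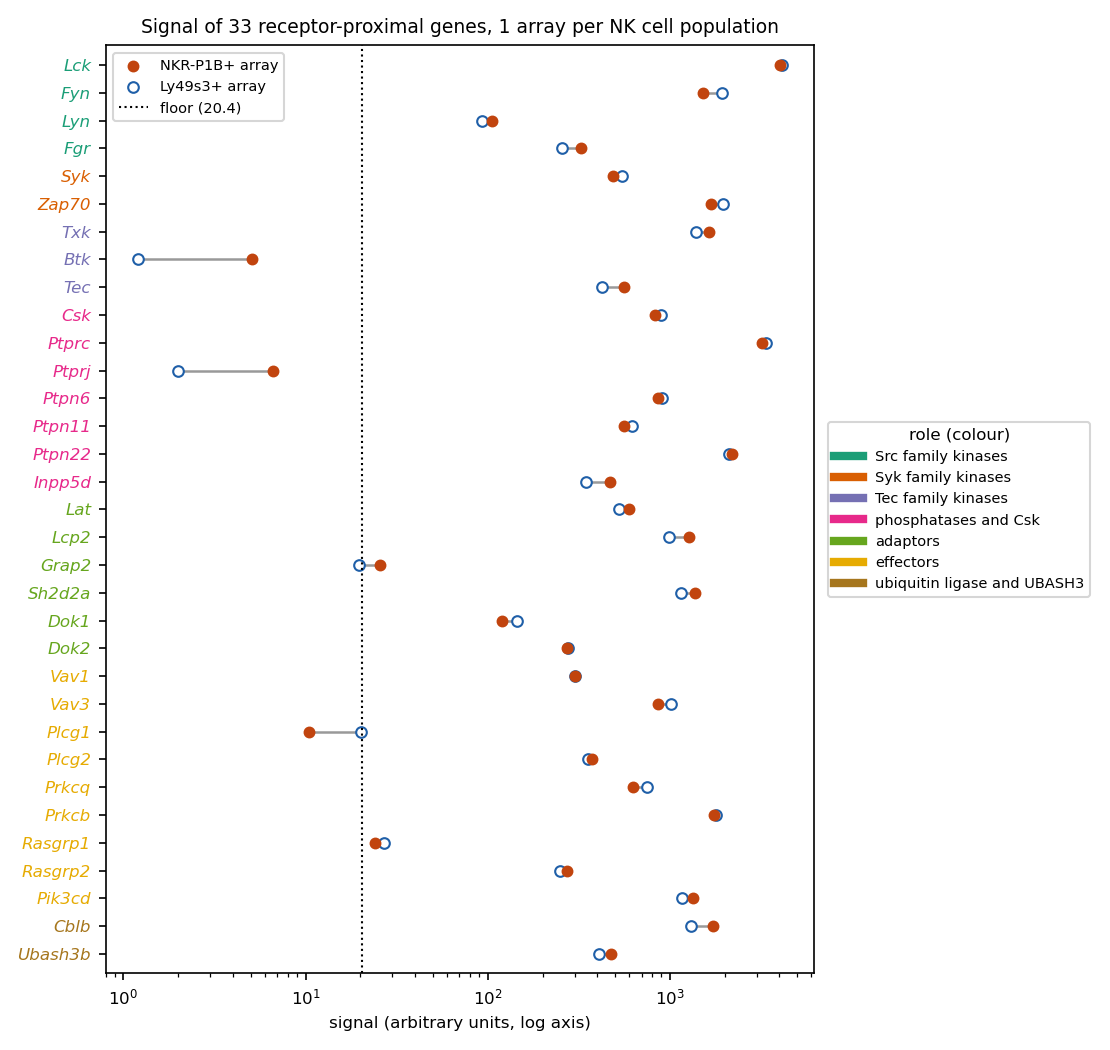
Signal (arbitrary units, log axis) of the 33 genes with a probe set on the NKR-P1B+ array (filled) and on the Ly49s3+ array (open), 1 array each, ordered and coloured by role, with the floor of 20.4 as a dotted line. The 2 points of a gene can be compared, but the signals of different genes cannot. The points of most genes nearly coincide, and Btk, Ptprj and Plcg1 lie left of the floor on both arrays.

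These directions hold for the authors' scaling, which gave both arrays the same trimmed mean. Scaling by the poly-A spikes instead, control RNAs meant to be added before labelling, moved the median of all genes above the floor on both arrays from −0.01 to 0.51 and the median of the 30 genes from 0.02 to 0.55. All 30 genes were then higher in NKR-P1B+ cells, 14 of them by at least 1.5-fold. The 17 poly-A spike probe sets above the floor had a median log2 difference of −0.53 with a range from −0.97 to 0.21. The 18 hybridisation control probe sets, which are meant to be added after labelling, had a median of 0.01. A constant scaling leaves the gap between 2 genes as it is, so such gaps are given below for related genes and for the 2 outermost genes.

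Without replicates, the disagreement between probe sets of 1 gene is the measure of precision used here. Its SD on the log2 scale was 0.13 at mean signals of at least 1000, 0.18 from 500 to 1000 and 0.38 between the floor and 50. Such probe sets see the same RNA on the same array, so this SD leaves out variation between rats, sorts and hybridisations. Of the 29 genes above the floor on both arrays, 4 differed by at least 2 such SDs (Cblb, Lcp2, Fyn and Inpp5d). Among all 8286 genes above the floor on both arrays that share was 12.3%.

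**Figure D2:**
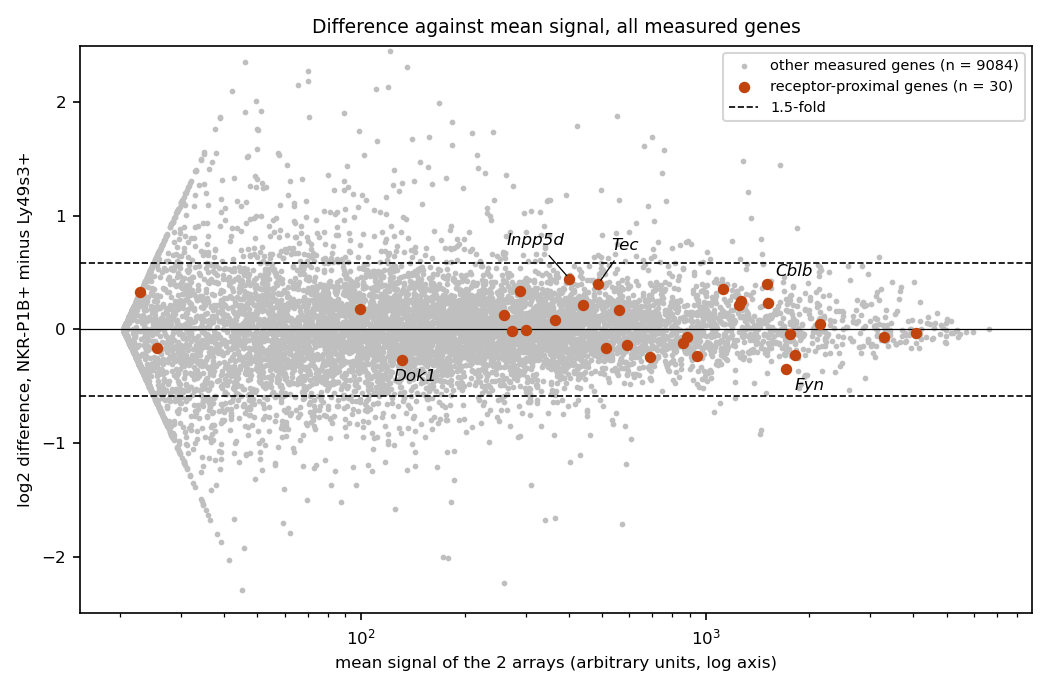
Log2 difference, NKR-P1B+ minus Ly49s3+, against the mean signal of the 2 arrays (log axis) for the 30 receptor-proximal genes and the other measured genes, with dashed lines at 1.5-fold. The 30 genes lie between −0.35 and 0.45, inside the dashed lines, whereas 14 genes lie beyond the axis limit of 2.5 and are not drawn.

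The Src family kinases start the cascade, and their directions were mixed. Lck, the kinase that binds the tails of CD4 and CD8, had a signal of 4041 in NKR-P1B+ cells and 4122 in Ly49s3+ cells. Fyn, the other main Src family kinase of lymphocytes, had 1515 and 1929, 1.27-fold higher in Ly49s3+ cells, and its second probe set had 330.1 and 447. Both Fyn probe sets thus pointed the same way, with log2 differences of −0.35 and −0.44, where −0.35 is the lowest value among the 30 genes. With the poly-A spike scaling Fyn had 0.18. A constant scaling keeps the order of genes above the floor, so that Fyn stayed lowest there adds nothing. Fgr, a Src family kinase of myeloid cells that is also made in NK cells, had 325 and 256, 1.27-fold higher in NKR-P1B+ cells. Lyn, the main Src family kinase of B cells and myeloid cells, had 106 and 93.2 on its brighter probe set and 33.2 and 38.7 on the other, so its direction depended on the probe set. The gap between Fgr and Fyn was 0.69, which is 1.61-fold, and that between Lck and Fyn 0.32.

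Syk and Zap70, the paired kinases that bind phosphorylated ITAMs, were both slightly lower in NKR-P1B+ cells on the deposited scale and higher with the poly-A spike scaling. Syk had 485 in NKR-P1B+ cells and 544 in Ly49s3+ cells, a log2 difference of −0.17. Zap70 had 1681.5 and 1964.5, a difference of −0.22, and its second probe set had 363 and 402, a difference of −0.15. The gap between the 2 kinases was 0.06 in size, below the probe set SD of 0.13 and 0.18 at their signals.

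Tec and Txk, the measured Tec family kinases, which activate phospholipase C gamma, were both higher in NKR-P1B+ cells on the deposited scale. So were 4340 of all 9114 measured genes, and 2 genes cannot be told apart from that share. Their differences were 1.87 and 1.8 times the probe set SD at their signals. With the poly-A spike scaling Tec (0.93) and Txk (0.76) had the same direction as Syk (0.36) and Zap70 (0.31). Tec had 561 in NKR-P1B+ cells and 425 in Ly49s3+ cells, 1.32-fold higher in the former. Txk, the Tec kinase also called Rlk in T and NK cells, had 1638 and 1394, 1.18-fold higher in the same cells. Btk, the Tec family kinase best known from B cells and myeloid cells, had 5.1 and 1.2 and was below the floor on both arrays. Tec and Txk each have 1 probe set, so no second probe set bears on either.

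Of the phosphatase genes whose products inhibitory receptors recruit, Ptpn6 and Ptpn11 were nearly level between the arrays. Inpp5d was higher in NKR-P1B+ cells on the deposited scale, by less than 1.5-fold. Ptpn6, which encodes SHP-1, had 863 in NKR-P1B+ cells and 906 in Ly49s3+ cells, and Ptpn11, which encodes SHP-2, had 562 and 618. Their log2 differences of −0.07 and −0.14 are smaller than the probe set SD of 0.18. Inpp5d, which encodes the inositol phosphatase SHIP-1 that removes the product of PI3-kinase, had 469.6 and 344.5. It was 1.36-fold higher in NKR-P1B+ cells, the highest log2 difference of the 30 genes at 0.45, on its only probe set. That is 2.08 times the probe set SD, and 12.3% of all genes above the floor on both arrays reached at least 2 times. The gap between Inpp5d and Fyn, the 2 outermost genes, was 0.79, which is 1.74-fold. Since the pair was picked as outermost, this is by selection the largest gap among the 30 genes.

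The regulators of the Src kinases themselves differed by at most 1.08-fold on their brightest probe sets. Csk, the kinase that locks Src kinases in their inactive form, had 825 in NKR-P1B+ cells and 894.5 in Ly49s3+ cells. Ptpn22, a phosphatase that works with Csk against the same kinases, had 2186 and 2118. Ptprc, which encodes CD45, the phosphatase that releases Src kinases from the Csk lock, had 3209 and 3358, and a second probe set had 532 and 493. The 2 Ptprc probe sets differed in sign, at −0.07 and 0.11. Ptprj, which encodes the receptor phosphatase CD148, was below the floor on both arrays on both of its probe sets.

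Of 6 measured adaptor genes, 4 were higher in NKR-P1B+ cells, with a median of 0.21 over the 6. Among all measured genes 4340 of 9114 were higher there, and a count over 6 genes cannot be told apart from that share. Lcp2, which encodes SLP-76, the scaffold that gathers Vav and phospholipase C gamma, had 1269.8 in NKR-P1B+ cells and 993 in Ly49s3+ cells, 1.28-fold higher in the former. Its second probe set had 306 and 265, so that the 2 probe sets gave 0.35 and 0.20 in the same direction. Lat, the membrane adaptor to which SLP-76 is linked, had 594 and 526.5, a difference of 0.17 against a probe set SD of 0.18. Sh2d2a, which encodes the Lck-binding adaptor TSAd, had 1379 and 1157, a difference of 0.25. Grap2, which encodes Gads, the link between Lat and SLP-76, had 25.6 and 19.7. The latter value is below the floor, so that Grap2 was at least 1.25-fold higher in NKR-P1B+ cells, at a signal where the probe set SD is 0.38.

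The inhibitory adaptors of the Dok family, which bind Ras GTPase-activating protein, were the 2 adaptors without a higher signal in NKR-P1B+ cells. Dok1 had 119 in those cells and 144 in Ly49s3+ cells, 1.21-fold higher in the latter, a log2 difference of −0.27 against a probe set SD of 0.25. Dok2 had 274 and 276.

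**Figure D3:**
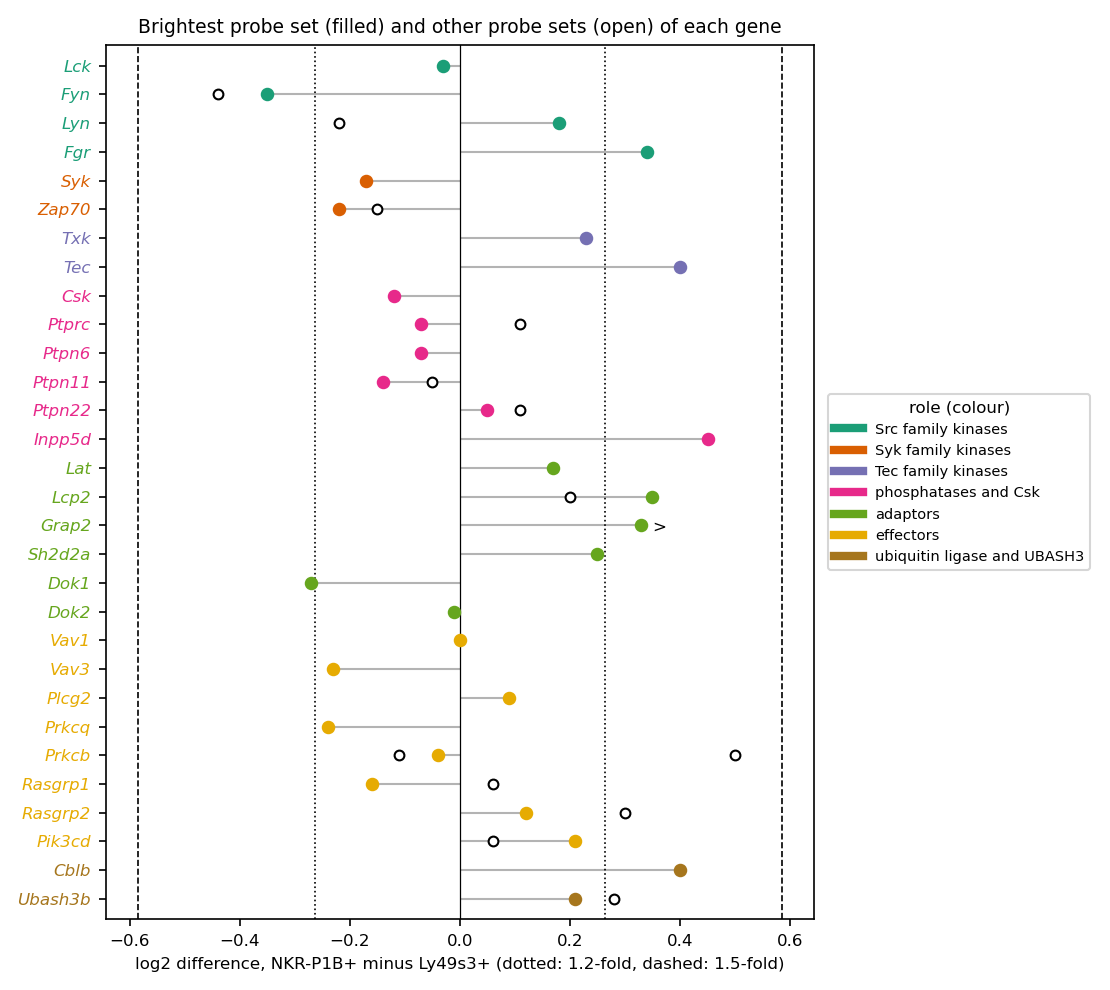
Log2 difference, NKR-P1B+ minus Ly49s3+, of the brightest probe set (filled, coloured by role) and of every other probe set above the floor on at least 1 array (open) for the 30 measured genes, with dotted lines at 1.2-fold and dashed lines at 1.5-fold; the sign > marks the lower bound of Grap2. Fyn, Zap70 and Lcp2 keep 1 direction on both probe sets, and Lyn, Ptprc and Prkcb do not.

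None of the 8 measured effector genes was 1.2-fold apart on its brightest probe set, against 37.8% of all measured genes and 25.5% of those with a mean signal of at least 200, and the median log2 difference of the 8 was −0.02. Vav1, the exchange factor that activates Rac in blood cells, had 301.1 in NKR-P1B+ cells and 301.3 in Ly49s3+ cells. Vav3, its relative, had 867 and 1019.7, a difference of −0.23. Plcg2, the phospholipase C gamma used by NK cells and B cells, had 375 and 353. Plcg1, the form used by T cells, had 10.5 and 20.1, below the floor on both arrays. The floor decides that status: with the lower floor tried, the 35th percentile, Plcg1 counted as higher in Ly49s3+ cells with a log2 difference of −0.94.

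Protein kinase C theta and the Ras exchange factor encoded by Rasgrp1 read the lipid that phospholipase C gamma makes. Prkcq, which encodes protein kinase C theta, had 632 in NKR-P1B+ cells and 748 in Ly49s3+ cells, a difference of −0.24. Prkcb, which encodes protein kinase C beta, had 1739 and 1785 on its brightest probe set and 53.9 and 58.1 on another. A further Prkcb probe set had 177 and 125, a difference of 0.50. The range of 0.61 over its 3 probe sets was the widest among the 11 genes with several probe sets above the floor on both arrays. Rasgrp1, the main Ras activator of T cells, was near the floor at 24.1 and 27.0. Rasgrp2, which activates Rap1, had 271 and 249 on one probe set and 216 and 175 on the other. Pik3cd, the PI3-kinase subunit p110 delta of lymphocytes, had 1349 and 1164, a difference of 0.21, and 508 and 488 on its second probe set.

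Cblb and Ubash3b, the measured members with a ubiquitin-linked role, were both higher in NKR-P1B+ cells, as were 4340 of all 9114 measured genes. Not every ubiquitin ligase gene measured had this direction on the deposited scale. Cbl (−0.39 on its brightest probe set) and Nedd4l (−0.75), both described below, were higher in Ly49s3+ cells on that scale. Cblb, which encodes a ubiquitin ligase that restrains NK and T cell activation, had 1729.9 in NKR-P1B+ cells and 1313 in Ly49s3+ cells, 1.32-fold higher in the former. Its log2 difference of 0.40 is 3.08 times the probe set SD at that signal, the highest such multiple among the 30 genes, on its only probe set. Ubash3b, which encodes the phosphatase Sts-1 that acts on Syk and Zap70, had 474 and 408, with 425 and 349.8 on a second probe set. The log2 differences of these 2 Ubash3b probe sets were 0.21 and 0.28.

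Over the 11 genes with at least 2 probe sets above the floor on both arrays, all probe sets of a gene gave 1 sign for 8 genes and both signs for 3 (Lyn, Ptprc and Prkcb). The 8 include Fyn and Lcp2 among the genes at least 1.2-fold apart. Inpp5d, Tec, Cblb, Fgr, Grap2 and Dok1 have 1 probe set each.

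Both arrays carried the markers of NK cells. All 10 genes of the NK list with a probe set were above the floor, among them the sorting marker Klrb1a (3740.2 in NKR-P1B+ cells and 3813 in Ly49s3+ cells) and Ncr1 (425 and 318), which encodes the receptor NKp46. The list was not level between the arrays: its median log2 difference was 0.32, 5 of the 10 genes were at least 1.2-fold higher in NKR-P1B+ cells and 1 in Ly49s3+ cells, and its signals summed to 26137 and 22301. The granzyme gene Gzmb had 3973 and 2549, 1.56-fold higher in NKR-P1B+ cells, and the others of the 5 were Gzma (0.49), Prf1, Il2rb and Ncr1 (0.42 each). Eomes, a transcription factor of NK cells, had 1237 and 1820.5, a difference of −0.56. These differences are as large as those of the genes described. Many of the genes described are also made by B cells or myeloid cells, among them Lyn, Fgr, Syk, Plcg2, Inpp5d and Btk, and this list is not complete. Of 10 macrophage and monocyte markers with a probe set, 9 were below the floor on both arrays, including Csf1r, Cd68 and Cd14. The exception, the lysozyme gene Lyz2, had 356 and 133, and the signals of the list summed to 414 and 208. Of 7 B cell markers, 5 were below the floor on both arrays, including Ms4a1 and Cd79b. Cd22 had 103 and 52.9, Fcrla had 56.8 and 43.3, and the list summed to 193 and 141. Both sums were higher in NKR-P1B+ cells, but Lyz2 alone made the macrophage difference and Cd22 made most of the B cell difference. The sums are therefore no measure of such cells. Of the 6 genes named as shared, Fgr (0.34) and Inpp5d (0.45) were higher in NKR-P1B+ cells. Plcg2 was nearly level (0.09) and Syk was lower (−0.17), while Lyn depended on the probe set and Btk was below the floor. The part of such cells in these differences was not tested.

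T cells share Lck, Fyn, Zap70, Lat and Prkcq with NK cells. Cd3d and Cd3e were below the floor on both arrays, and Cd3g had 22.3 in NKR-P1B+ cells and 42.9 in Ly49s3+ cells. Cd8a, which rat NK cells also carry, had 2151 and 767, Cd5 had 92.7 and 40.8, and Cd6 had 273 and 179. Of 10 T cell markers with a probe set 7 were above the floor on at least 1 array, with a median log2 difference of −0.01. Cd8a, Cd5 and Cd6 were the 3 higher in NKR-P1B+ cells. The 4 higher in Ly49s3+ cells were Cd3g, Cd28 (−0.23), Ctla4 (−0.08) and Cd4, which was at the floor on 1 array (−0.01). The list summed to 2622 and 1164, and most of both sums is Cd8a. Of the neutrophil and mast cell, dendritic cell and platelet lists, 1 of 6, 2 of 4 and 1 of 4 genes were above the floor. These lists summed to 29.2 and 35.6, to 2292 and 1801, and to 60.3 and 50.6. The dendritic cell sum is almost all Itgax (2281 and 1716), while Flt3 and Clec9a were below the floor on both arrays. Batf3 of the same list had 4.2 and 83.2, at least 4.08-fold higher in Ly49s3+ cells. The part of such cells in the differences was not tested. In sorted populations measured in bulk, fewer cells of a type and less RNA per cell cannot be told apart.

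The genes around the described ones in the same pathway were taken from 7 further lists of 113 genes, of which 80 were measured. Of these 80 genes, 3 were at least 1.5-fold higher in NKR-P1B+ cells and 5 in Ly49s3+ cells, with a median difference of 0.0 and an SD of 0.39. These counts are close to the 5.11% and 5.73% of all measured genes, so the genes named next are values and say nothing particular to the pathway. In the list of other proximal kinases and adaptors (19 measured), the docking adaptor Gab1 had 92.4 and 52.7, 1.75-fold higher in NKR-P1B+ cells, and the adaptor Nck2 had 263 and 151, 1.74-fold higher there. Trat1, an adaptor of antigen receptors, had 86.2 and 346, 4.02-fold higher in Ly49s3+ cells, and Sh3bp2, which binds Syk, had 32 and 50.3, 1.57-fold higher there. Each of these 4 genes was thus further apart in fold than any of the 30 genes described. Low signals are less precise, however. None of the 4 had a mean signal (on the log2 scale) of at least 200, whereas 26 of the 30 genes did. Sh3bp2, with a log2 difference of −0.65, lies where the probe set SD is 0.38.

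In the list of other inhibitory phosphatases and ubiquitin ligases (17 measured), the receptor phosphatase gene Ptpra, whose product can also activate Src kinases, had 87.9 and 55.8, 1.58-fold higher in NKR-P1B+ cells. Inpp4b, which removes another phosphate from PI3-kinase products, had 69.3 and 158.6, 2.29-fold higher in Ly49s3+ cells, and the ubiquitin ligase gene Nedd4l had 47.7 and 80.4, 1.69-fold higher there. Inpp5d and Inpp4b, which encode lipid phosphatases of one pathway, therefore differed in direction, with a gap of 1.64 on the log2 scale.

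No gene of the calcium and NFAT (16 measured), Ras and MAP kinase (9) or PI3K and AKT (7) lists was at least 1.5-fold apart. Prkca, of the protein kinase C and NF-kappaB entry list (8 measured), had 43.5 and 73.5, 1.69-fold higher in Ly49s3+ cells.

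The ITAM chains, the substrates of the kinases described, were within 1.5-fold as well. Tyrobp, which encodes DAP12, the chain that pairs with activating Ly49 receptors, had 787 in NKR-P1B+ cells and 624 in Ly49s3+ cells, a difference of 0.34. Fcer1g, which encodes the Fc receptor gamma chain, had 4000.0 and 3331, a difference of 0.26. Hcst, which encodes DAP10, a chain that signals through PI3-kinase and has no ITAM, had 2195 and 1831, also a difference of 0.26. Cd247, which encodes the zeta chain, had 2008 and 2229, a difference of −0.15, the same direction as Syk and Zap70.

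**Figure D4:**
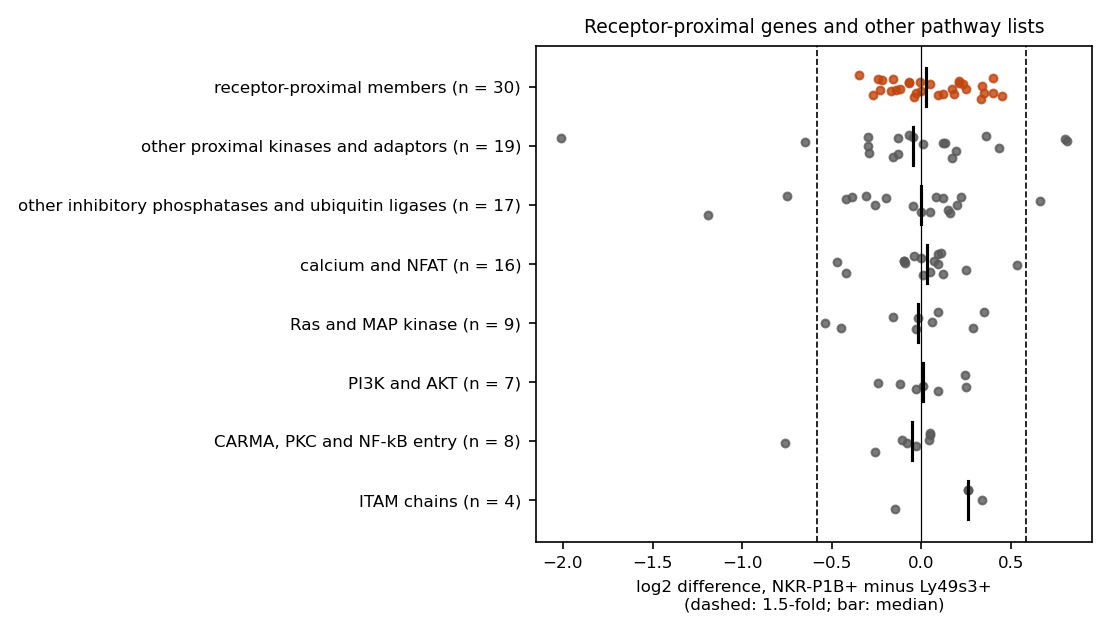
Log2 difference, NKR-P1B+ minus Ly49s3+, of each measured gene in the receptor-proximal group (top, 30 genes) and in 7 further pathway lists, with the median of each list as a bar and dashed lines at 1.5-fold. Points beyond the dashed lines occur in 3 of the 7 lists, 8 genes in all, and none among the receptor-proximal genes. None of the 8 had a mean signal (on the log2 scale) of at least 200, whereas 26 of the 30 receptor-proximal genes did. The contrast is thus not matched for brightness.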

How the data were processed

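Gene expression was measured on 1 Affymetrix array for each of 2 sorted rat NK cell populations. The deposited values are linear intensity values, 1 per probe set and array, made by the authors with MAS5 per the submitters' processing notes. Neither the version of MAS5 nor its scaling target or detection calls is given in the sources used here. The trimmed mean (2% at each end) was 100.04 on both arrays, the medians were 19.6 and 21.3, and the genes were not centred. Any factor applied before that is unknown.

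Gene symbols came from the platform annotation. All 38 members were found by symbol in a RefSeq table, and gene numbers added no probe set to those found by symbol. Values were floored at 20.4, the 50th percentile of the values of both arrays without controls, and converted to log2. A gene was counted as apart at 1.5-fold, with 1.2-fold as a lower limit. A ratio with 1 value at the floor is a bound. With 1 array per population no p-value was computed, and the number of arrays limits the precision.

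Precision is the SD of the difference between the 2 brightest probe sets of a gene divided by the square root of 2, by signal range. The members, lists and limits were chosen with earlier results of these data known. The text names every member, and from each other list the genes at least 1.5-fold apart, up to 3 per direction, and names further genes where it says so or as markers, ITAM chains or checks of cell identity. The alternatives were floors at the 35th and 65th percentiles, log2 of the value plus 32, median centring, quantile normalisation, a loess trend (span 0.3), poly-A spike scaling, and 2 other probe set rules. One further pathway list is not reported here. The calculation was tested on simulated data. Python 3.11.15, numpy 2.4.6, pandas 2.3.3 and statsmodels 0.14.6 were used.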

Additional observations from a re-analysis of the deposited data

How the results depend on the processing

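All alternatives except the poly-A spike scaling left the median difference of the members within the probe set SD of 0.18 of its reported value. Under that scaling the median was 0.55, 14 members were at least 1.5-fold and 28 at least 1.2-fold higher in NKR-P1B+ cells, none was higher in Ly49s3+ cells, and 3574 of all genes were at least 1.5-fold apart (3480 and 94 by direction), against 988 as reported. Of all genes, 1869 were at least 1.5-fold apart with the floor at the 35th percentile, where 1 member (Plcg1) also was, 523 with the floor at the 65th, 503 with log2 of the value plus 32, and 165 among genes with a mean signal of at least 200, a limit chosen after seeing the data. The second brightest probe set exists for fewer genes: 12 members were measured, 4 of them at least 1.2-fold apart, and 237 of all genes at least 1.5-fold. Leaving the spike scaling aside, 24 of 30 members kept 1 sign under each alternative that gave a value, and Lyn, Prkcb, Ptpn22, Ptprc, Rasgrp1 and Vav1 did not. For a member with 1 probe set well above the floor, the floor and probe set alternatives cannot change the value. The count therefore says little about such members. Among the 12 members with a second measured probe set, Lyn, Prkcb, Ptprc and Rasgrp1 changed sign on it. No paired analysis was possible because each population has 1 array. Low signals limit what can be said of Btk, Ptprj, Plcg1, Grap2 and Rasgrp1.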

Other observations

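Beside Cblb, its relative Cbl went the other way on the deposited scale; the poly-A spike scaling moves both up together and keeps the gap between them. Cbl, which encodes the ubiquitin ligase c-Cbl, had 515 in NKR-P1B+ cells and 675 in Ly49s3+ cells on its brightest of 4 probe sets. The other 3 had 353 and 549, 342 and 357, and 229 and 455.5, so that all 4 were higher in Ly49s3+ cells, with log2 differences from −0.99 to −0.06. The gap between Cblb and Cbl on their brightest probe sets was 0.79, which is 1.73-fold and does not depend on a constant scaling of the arrays. Cbl was singled out after its values were seen.

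The Ras GTPase-activating genes, also chosen after their values were seen, ran both ways. Rasa1, which encodes p120, had 275 and 399.9 on one probe set and 154 and 239 on the other, higher in Ly49s3+ cells on both. Rasa2 had 143 and 112, a log2 difference of 0.35 toward NKR-P1B+ cells. Rasa3 had 371 and 348 on its brightest probe set, a difference of 0.09, and 29.4 and 40.9 on the other, a difference of −0.48.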
